A study of Homo sapiens with 79 samples.

Results

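CREB-binding protein (CBP, encoded by CREBBP) was one of the 24 proteins examined by fRIP-Seq in K562 cells, and its 3 fRIP libraries are described here against the 3 libraries of input set 3, which makes 6 of the 79 libraries in the deposited table. K562 is an established human leukemia line with erythroid features. For fRIP, intact cells were cross-linked with 0.1% formaldehyde and sonicated, the cleared lysate was incubated with an antibody against CBP, and the recovered RNA was sequenced after depletion of ribosomal RNA, beside input RNA taken from lysate. All groups used here, the controls included, came from unmodified K562 cells that were cross-linked in this way, with no other treatment. The libraries were chosen by their labels, and input set 3 was taken because it lay nearest to the input values that the authors' own CBP comparison used. Over 18351 genes the mean absolute log2 difference from those values was 0.0452 for set 3, 0.205 for set 2 and 0.352 for set 1, and all 9 input libraries served as a check. According to the study, the fRIP replicates came from different dates and lysates, which it does not state for the input libraries.

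CBP is a lysine acetyltransferase and transcriptional coactivator. It is recruited to promoters and enhancers by DNA-bound factors such as CREB, where it acetylates histones and other proteins, and its close paralog is p300 (EP300). CBP has no classical RNA-binding domain, but RNA made at enhancers has been described as a partner of its catalytic domain. A fold change here means CBP fRIP over input, so it describes which RNAs were over-represented in the immunoprecipitate relative to the lysate and not how much RNA each cell held. In such bulk samples, fewer cells with an RNA and less RNA per cell cannot be told apart.

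The 6 libraries were of similar depth. The steps that 1 fragment adds to the FPKM of rarely detected genes put the CBP libraries at about 10.2, 12.4 and 14.5 M fragments (1 M is 1e6) and those of input set 3 at about 11.6, 9.59 and 12.2 M. On log2(FPKM + 1), the correlation across genes was 0.969 to 0.972 within CBP, 0.965 to 0.973 within input set 3, and 0.875 to 0.893 between them. Of the 11 K562 markers tested, none was called by limma (3 were higher and none was lower at an unadjusted p under 0.05). HBE1 stood at 484, 553 and 437 FPKM in CBP and 592, 616 and 660 in input, and GATA1 at 108, 110 and 116 against 87.1, 97.2 and 89.7. Among the 8 markers of other blood cells, MS4A1 was listed at 0 in all 6 libraries and CD14, CD3E and MPO were below the filter, while none of the 4 that were tested was called by limma (1 was lower at an unadjusted p under 0.05) and their summed FPKM was 115 to 145 in CBP and 116 to 152 in input.

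Which RNAs were enriched or under-represented with CBP was asked first. Of 48453 genes in the table, 16095 had a mean of at least 1 FPKM over the 6 libraries and were tested. By limma with Benjamini-Hochberg adjustment, with calls at adjusted p below 0.05 and over 1 log2 unit of change, 2301 genes (14.3%) were higher in CBP fRIP and 706 (4.39%) were lower. The median change over all genes was 0.08. The called genes that were higher had a median log2 fold change of 1.55, and 598 of them exceeded 2, whereas the lower ones had a median of -1.19 and 23 passed -2. In 2288 of the 2301 higher genes and 687 of the 706 lower ones, the CBP libraries did not overlap those of input set 3, and 2193 and 603 of them did not overlap any of the 9 input libraries. Of all genes tested, called or not, 36.2% had every CBP library above and 26.5% every CBP library below input set 3, and for all 9 inputs these shares were 26.8% and 14.8%. Higher genes made up 76.5% of the calls. When each library was centred on its median, which moved all fold changes by 0.21 on the log2 scale, 1810 genes were higher and 1394 were lower, so that the share of higher genes was 56.5%. The values below are on the original scale.

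The first gene considered was that of the antibody's own target. CREBBP (ENSG00000005339.8, chr16:3775055-3930714 on the minus strand, hg19) stood at 117, 82.6 and 163 FPKM in the 3 CBP libraries and at 15.4, 16.1 and 13.9 FPKM in input set 3. The groups did not overlap, and the log2 fold change was 2.86 with an SE of 0.17 (adjusted p = 6.4e-21, limma). The lowest CBP library was also above each of the other 76 libraries of the study, the highest of which was a SUZ12 library at 53.0 FPKM. Against the CREBBP change in other fRIPs, that of CBP was larger by 2.81 on the log2 scale than PCAF (adjusted p = 2.1e-14), by 1.499 than SUZ12 (adjusted p = 1.1e-06) and by 2.29 than CHD7 (adjusted p = 8.2e-17), all by limma. EP300, which encodes the paralog p300, stood at 7.04, 6.66 and 5.70 FPKM in CBP and 5.77, 6.12 and 4.99 FPKM in input. These ranges overlapped, and the log2 fold change was 0.17 ± 0.14 (SE, adjusted p = 0.33 by limma).

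**Figure D1:**
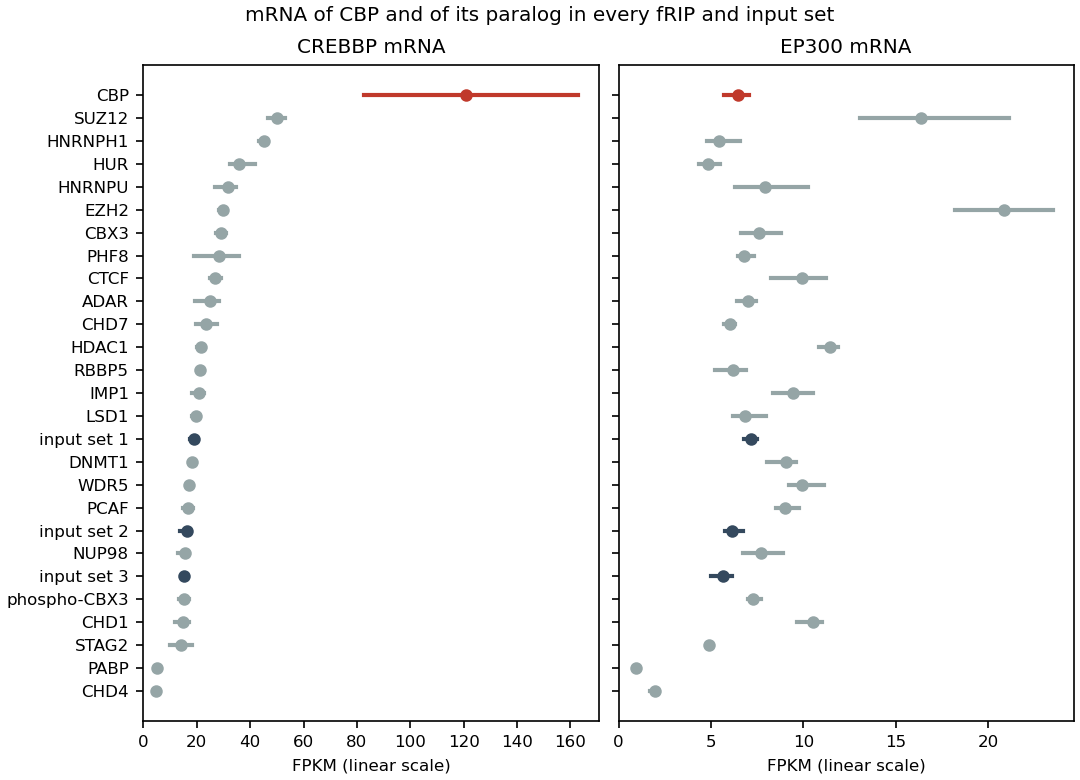
FPKM of CREBBP (left) and EP300 (right) on a linear scale in each of the 24 fRIPs and 3 input sets, with points for group means and lines from the lowest to the highest library. CREBBP in CBP fRIP, at 82.6 to 163 FPKM, lies above all other groups, while EP300 in CBP fRIP lies at 5.70 to 7.04 FPKM among them.

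Both long coding isoforms of CREBBP were higher in CBP. The isoform with 31 exons, ENST00000262367.5, was at 46.3, 28.6 and 61.9 FPKM in CBP and 4.61, 4.55 and 4.33 FPKM in input, a log2 fold change of 3.02 with an SE of 0.15. The coding isoform with 30 exons, ENST00000382070.3, changed by 3.01 with an SE of 0.27. Annotated retained-intron isoforms of CREBBP made up 14.5%, 14.3% and 7.58% of the gene's FPKM in CBP and 26.2%, 20.5% and 26.8% in input, so that their share was smaller in every CBP library, although 1 of these isoforms, ENST00000571763.1, was itself higher at 2.49.

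The mRNAs with the largest enrichment encoded proteins of varied function. MAN2C1 (chr15:75647548-75660953, minus strand), a cytosolic alpha-mannosidase, was at 1066, 953 and 1018 FPKM in CBP and 80.3, 69.1 and 83.6 FPKM in input, a log2 fold change of 3.69 ± 0.18 (SE). Of its coding isoforms with 26 exons, ENST00000565683.1 and ENST00000569482.1 changed by 4.53 and 3.52. The isoform ENST00000267978.5 was at 0.421, 14.8 and 1.94 FPKM in CBP and 10.9, 7.90 and 6.18 FPKM in input. Its change of -1.18 was not called. SON (chr21:34915344-34949787, plus strand), an SR-like protein of nuclear speckles that takes part in splicing, was at 1081, 802 and 1012 FPKM against 76.5, 76.8 and 77.7 FPKM, a change of 3.62 ± 0.15. ATHL1, which resembles acid trehalase, stood at 525, 518 and 568 FPKM against 36.0, 30.7 and 35.1 FPKM. In all of these genes every CBP library was far above every input library.

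HSF4, a heat shock transcription factor, was at 317, 258 and 338 FPKM in CBP and 17.9, 17.1 and 18.4 FPKM in input, a log2 fold change of 4.02. ACAP3, a GTPase-activating protein for Arf, was at 364, 316 and 415 FPKM against 23.6, 20.8 and 24.4 FPKM, a change of 3.93. EME2, a partner of the MUS81 nuclease, was at 135, 115 and 106 FPKM against 6.93, 6.97 and 5.70 FPKM, a change of 3.99. The groups stood apart in each case. MIB2, a ubiquitin ligase of Notch ligands, changed by 3.62, MAPK15, an atypical MAP kinase, by 3.65, the secreted protein FAM132A by 3.63 and the SR protein kinase SRPK3 by 3.61, with adjusted p-values (limma) between 1.7e-22 and 8.3e-11.

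The remaining leading mRNAs overlap other genes. AL356356.1, at 273, 240 and 201 FPKM against 22.7, 10.4 and 4.49 FPKM, lies within the bounds of ADAMTSL4, and SAPCD1, at 353, 273 and 334 FPKM against 17.2, 12.8 and 14.3 FPKM, shares its locus with MSH5, with an MSH5-SAPCD1 read-through and with an antisense RNA. Their log2 fold changes were 4.38 and 4.35. Annotated retained-intron isoforms held 98.5% to 100% of the FPKM of SAPCD1. EME2, ACAP3, MAN2C1, MAPK15, SON, MIB2 and SRPK3 also overlap at least 1 other tested gene. Whether the counting used strand is not given in the sources used here, so that reads of overlapping genes may have been exchanged.

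**Figure D2:**
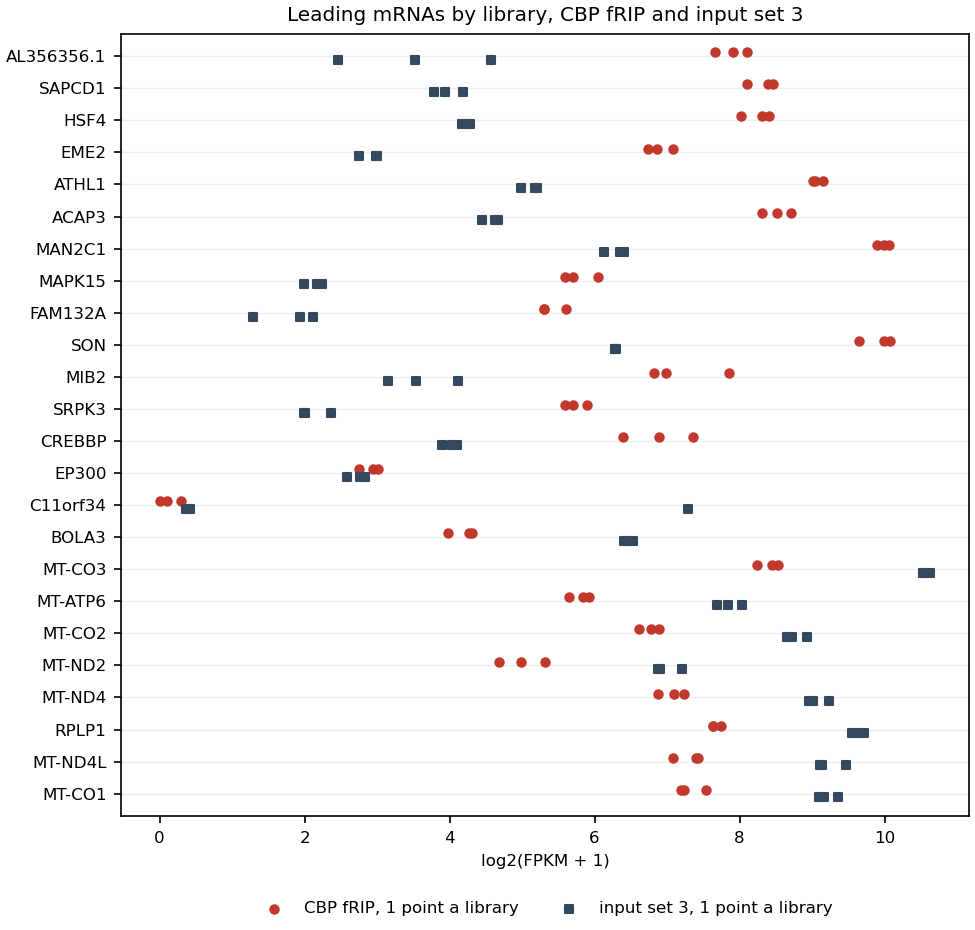
Level of the 12 mRNAs with the largest and the 10 with the smallest log2 fold change, and of CREBBP and EP300, as log2(FPKM + 1) in each library. Circles are the 3 CBP libraries and squares the 3 libraries of input set 3, and only EP300 has ranges that overlap, while for C11orf34 a single input library at 156 FPKM sets the difference.

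Of the 10 mRNAs named as most under-represented, 7 were encoded in mitochondrial DNA. MT-CO3 (chrM:9207-9990), a subunit of cytochrome c oxidase encoded in mitochondrial DNA, was at 347, 301 and 370 FPKM in CBP and at 1482, 1582 and 1472 FPKM in input. Its log2 fold change was -2.16 with an SE of 0.24 (adjusted p = 3.3e-11, limma). MT-ATP6, MT-CO2, MT-ND2, MT-ND4, MT-ND4L and MT-CO1, subunits of ATP synthase, cytochrome c oxidase and complex I, changed by -2.05, -2.01, -2.003, -1.9998, -1.94 and -1.88. All 13 mitochondrial mRNAs were called lower, with changes from -2.16 to -1.34. The 14 mitochondrial rRNAs and tRNAs tested ranged from -6.17 to 3.19, and none of them was called by limma, although 4 were called lower against all 9 inputs. At an unadjusted p under 0.05, 16 of all 27 mitochondrially encoded genes were lower and none was higher. In the PCAF, SUZ12 and CHD7 fRIPs, MT-CO3 was lower still, at -4.82, -2.78 and -2.99 against their own inputs.

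BOLA3, which takes part in the assembly of iron-sulfur clusters, was at 14.7, 18.2 and 18.7 FPKM in CBP and 86.4, 91.2 and 83.5 FPKM in input, a log2 fold change of -2.28. RPLP1, a protein of the ribosomal stalk, was at 197, 198 and 213 FPKM against 751, 790 and 837 FPKM, a change of -1.96. CBP and input did not overlap for either gene. C11orf34 was also named by the rule, with a change of -2.56, but it was at 0, 0.231 and 0.0773 FPKM in CBP and at 0.292, 156 and 0.331 FPKM in input, and without the second input library its change was -0.26 and was no longer called (adjusted p = 0.31, limma).

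The members of each gene list are set against all genes tested, of which 14.3% were higher and 4.39% lower, or 29.8% higher and 20.2% lower at an unadjusted p under 0.05. Of 84 cytosolic ribosomal protein genes tested, 42 (50.0%) were lower and none was higher, and all 84 had a log2 fold change below 0, with a median of -0.996 beside 0.08 over all genes. RPS12 was at 363, 429 and 395 FPKM in CBP and 1408, 1292 and 1553 FPKM in input. At an unadjusted p under 0.05, 79 of the 84 were lower and none was higher. The count was 31 against all 9 inputs, 13 against input set 1 and 61 after centring.

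Nuclear-encoded subunits of the respiratory chain were lower in 16 of 83 cases and higher in 3, with a median of -0.63. With all 9 inputs 3 were lower and 4 higher, and against input set 1 none was lower and 9 were higher. The 2 members with the largest change were both higher. COX6B2, a testis-type subunit of cytochrome c oxidase, changed by 2.01, and NDUFB8 by 2.44, the latter for a locus (ENSG00000255339.2) that overlaps SEC31B and HIF1AN and carries the same symbol as a second gene. Mitochondrial ribosomal proteins had 1 lower and 2 higher of 77 (5 and 2 after centring, 0 and 6 against input set 1), the higher ones being MRPL38 at 1.31 and MRPS2 at 1.23. At an unadjusted p under 0.05, 27 of them were lower and 3 higher, beside 20.2% and 29.8% of all genes, and their median was -0.28. None of 46 proteasome genes was called by limma (8 were higher and 5 lower at an unadjusted p under 0.05), and their median was -0.0016, while against input set 1, 6 were called higher.

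Translation factors had 2 of 61 higher and 2 lower (1 and 3 after centring, 6 and 2 against input set 1). At an unadjusted p under 0.05, 10 were higher and 21 lower, beside 29.8% and 20.2% of all genes, and their median was -0.11. EIF2B5, a subunit of the exchange factor of eIF2, changed by 1.70, and PABPC1, the cytoplasmic poly(A)-binding protein, was at 251, 246 and 273 FPKM in CBP and 618, 623 and 658 FPKM in input, a change of -1.30. Aminoacyl-tRNA synthetases were higher in 4 of 19 cases (21.1%, beside 14.3% of all genes), led by MARS and VARS at 1.36 each, and the count was 2 after centring, 8 against input set 1 and 10 against input set 2. Chaperones had 2 higher, DNAJC4 at 1.89 among them, and 1 lower, DNAJC19 at -1.25, of 65, while 8 were higher against input set 1, and DNAJC19 lost its call against all 9 inputs, at -0.99. Replication-dependent histones had 1 lower gene of 52, HIST1H4D at -1.02, which against input set 1 changed by 0.34 and which lost its call without the first CBP library (-0.83) or without the third input library (-0.91). Against input set 1, 37 of the 52 were higher.

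Genes of the splicing machinery were examined in 3 lists. Of 25 SR proteins and SR-like factors, 7 were higher and none was lower (2 were lower at an unadjusted p under 0.05), with a median of 0.76. After centring 4 were higher, and also 4 against all 9 inputs. Besides SON, CLK2, a kinase that phosphorylates SR proteins, stood at 301, 266 and 273 FPKM in CBP and 24.6, 24.1 and 25.6 FPKM in input, a log2 fold change of 3.45 ± 0.17 (SE). Spliceosome proteins had 10 of 63 higher (15.9%, beside 14.3% of all genes) and 5 lower, and 6 and 9 after centring or 16 and 0 against input set 1, led by the helicase DHX38 at 2.45 and SF3A2, a subunit of the U2 particle, at 2.25. Among hnRNPs, 3 of 30 were higher (1 after centring) and 1 was lower, with HNRNPH1 at 1.33 and PCBP4 at 1.11, and the call of PCBP4 was lost when the third CBP or the first input library was left out (adjusted p = 0.059 and 0.051, limma).

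Genes of transcription and chromatin were examined next, since CBP works with their products. Acetyltransferases and coactivators were higher in 8 of 49 cases (16.3%) and lower in none (2 were lower at an unadjusted p under 0.05), with a median of 0.35. CREBBP led this list, followed by ING5, a subunit of acetyltransferase complexes, at 48.0, 45.2 and 34.0 FPKM in CBP and 12.1, 12.9 and 8.72 FPKM in input. Transcription factors that recruit CBP were higher in 10 of 59 cases (16.9%), among them SREBF1, a regulator of lipid synthesis, at 2.57 and the retinoid X receptor RXRB at 2.06. Both shares were close to the 14.3% over all genes.

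Chromatin remodellers and methyltransferases were higher in 17 of 80 cases (21.2%), with a median of 0.58. KMT2B, a histone H3 lysine 4 methyltransferase, changed by 2.28, and the deacetylase HDAC7 by 2.26. RNA polymerases and Mediator had 9 higher (15.3%, beside 14.3% of all genes) and 2 lower of 59, and 7 and 4 after centring or 13 and 0 against input set 1, with the Mediator subunit MED24 at 2.33 and POLR2A, the largest subunit of RNA polymerase II, at 1.68. Annotated retained-intron isoforms held 100% of the FPKM of POLR2A in each of the 6 libraries. Of 26 genes of cAMP and PKA signalling, the pathway upstream of CREB, 8 were higher (30.8%, 4 genes at a mean of at least 5 FPKM) and 1 was lower (3.85%), beside 14.3% and 4.39% of all genes, led by AKAP8L at 2.51 and the adenylyl cyclase ADCY7 at 2.16. C2H2 zinc fingers had 24 higher and 4 lower of 432 (19 and 16 after centring), a smaller share of higher genes (5.56%) than over all genes, with ZNF692 at 2.96 and ZNF251 at 2.93.

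Against input set 3, the 2 lists with the largest shares of higher genes were those of ATP-binding cassette proteins and of integrins, laminins and collagens. Of their 45 and 92 members, 22 and 31 passed the filter, whose mean includes the CBP libraries. The order depended on the input set. Against set 1, 37 of 52 histone genes were higher, and against set 2, 10 of 19 aminoacyl-tRNA synthetases. The 2 lists had 12 and 10 higher genes against set 1 and 9 and 13 against set 2. ATP-binding cassette proteins were higher in 10 of 22 cases (45.5%), with the lipid transporters ABCA2 at 3.01 and ABCA7 at 2.84, and had a median of 0.81. Integrins, laminins and collagens were higher in 12 of 31 cases (38.7%, 8 genes at a mean of at least 5 FPKM). LAMA5, a laminin chain, was at 252, 235 and 300 FPKM in CBP and 31.1, 25.9 and 29.0 FPKM in input, and ITGA7, an integrin chain, changed by 2.51. Large cytoskeletal proteins were higher in 10 of 34 cases (6 against input set 1), led by the myosins MYO9B at 2.08 and MYO18A at 2.01, and solute carriers had 43 higher and 2 lower of 182, led by SLC12A4 at 2.88 and SLC26A6 at 2.72.

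Metabolic and cell-cycle genes were examined as well, and most of their shares of higher genes lay near the 14.3% over all genes. Lipid and sterol synthesis was higher in 9 of 37 cases (24.3%), led by LPIN3 at 2.90 and FADS3 at 2.25, and nucleotide and one-carbon synthesis in 4 of 31 (12.9%), where OPLAH, the oxoprolinase of the glutathione cycle, was at 373, 385 and 436 FPKM in CBP and 32.2, 34.9 and 42.6 FPKM in input and IMPDH1 changed by 1.94. For OPLAH, 93.75% to 100% of the FPKM lay in annotated retained-intron isoforms. Replication genes were higher in 9 of 50 cases (18%, 3 after centring and 5 without the first CBP library), led by the polymerase subunits POLE at 2.48 and POLD1 at 1.69, and DNA repair genes in 10 of 53 (18.9%) with 1 lower, led by the helicases RECQL5 at 2.44 and RECQL4 at 2.43. Kinesins and centrosomal proteins were higher in 14 of 81 cases (17.3%), led by CENPT at 2.27 and KIF18B at 2.01, nucleoporins in 2 of 27 (7.41%), NUP85 at 1.501 and AAAS at 1.28, and ubiquitin ligases of the HECT and UBR families in 3 of 27 (11.1%, 1 gene after centring), among them HECTD3 at 1.40 and UBR4 at 1.204.

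Globins and heme synthesis had 3 higher genes of 21 (14.3%, 1 after centring and 5 against input set 1), among them the heme enzymes PPOX at 1.67 and ALAD at 1.17, while the median of the list was -0.01. The erythroid membrane skeleton had KEL, a blood group protein, higher at 1.83 and 2 genes lower of 22, among them XK at -1.18, with a median of 0.35. Against all 9 inputs 4 of its genes were higher, and against input set 1 it was 5 higher and 0 lower. The XK call was lost against all 9 inputs, where the change was -0.74. Of 19 immediate early genes 4 were higher (0 against input set 1), with CCNL1 at 1.61 and FOS at 1.75, and FOS at 8.25, 16.9 and 3.28 FPKM in CBP and 1.46, 3.07 and 0.841 FPKM in input lost its call without the second CBP library (adjusted p = 0.14, limma) or without the third input library (adjusted p = 0.079, limma).

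**Figure D3:**
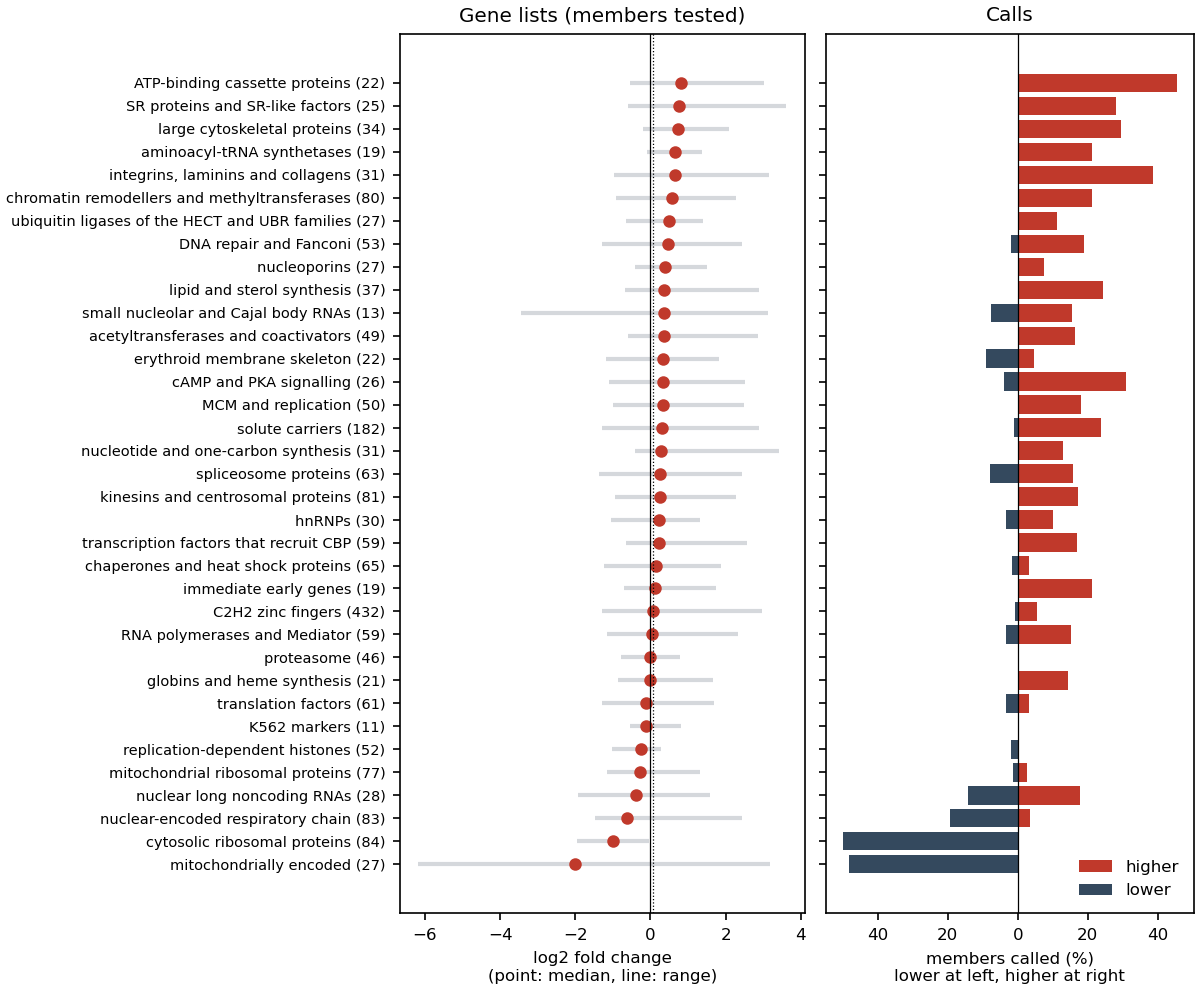
Gene lists with at least 10 tested members, with the number tested in parentheses. On the left, points are medians and lines the range of the log2 fold change (CBP fRIP over input set 3), with the dotted line at the median of all genes, 0.08. On the right, bars give the percentage of members called higher (to the right) or lower (to the left), from 45.5% higher for ATP-binding cassette proteins to 50.0% lower for cytosolic ribosomal proteins.

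Classes of genes were described as well, without a test between them, beside 14.3% higher and 4.39% lower over all genes. Of 11248 mRNAs, 1799 (15.99%) were higher and 308 (2.74%) lower, with a median log2 fold change of 0.17, which was -0.04 after centring, where 1434 were higher and 638 lower. Of 2276 lncRNAs, 315 (13.8%) were higher and 116 (5.10%) lower, with a median of -0.04, but 233 were higher and 247 lower after centring, and 250 and 349 against input set 1. Among 1891 pseudogenes more were lower than higher, with 117 (6.19%) higher and 239 (12.6%) lower and a median of -0.39, and the lower count was 427 after centring and 550 against input set 1. Pseudogenes share sequence with their parent genes, so that their values are uncertain.

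Of the 5 lncRNAs named for the largest enrichment, 3 overlapped another tested gene. Such overlap was common, as 75.6% of the lncRNAs that were higher and 67.7% of those not called overlapped an mRNA gene. BRD2-IT1, an RNA within BRD2 (chr6:32938009-32938663, plus strand), was at 41.7, 26.9 and 26.5 FPKM in CBP and at 0.606 and 0.668 FPKM in 2 input libraries, with the other listed at or near 0. AC114730.7, in D2HGDH, was at 69.7, 51.3 and 47.6 FPKM against 3.57, 2.79 and 3.97 FPKM, and C1orf138, which overlaps ADAMTSL4 and MCL1, at 48.5, 35.6 and 39.6 FPKM against 2.23, 2.26 and 2.94 FPKM. RP11-326C3.2 and CTD-3064M3.7 overlapped no other tested gene and changed by 3.67 and 3.604. RP11-326C3.2 (chr11:287305-288987, plus strand) lies just upstream of ATHL1, which starts at 289126 on the same strand. Whether its reads belong to ATHL1 was not tested. Of the 315 lncRNAs that were higher, 149 (47.3%) overlapped an mRNA gene that was itself higher, whereas this was so for 146 of the 1845 lncRNAs that were not called (7.91%). Since strand use is not stated, the lncRNA and the overlapping mRNA cannot be told apart as the source of such reads.

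Among under-represented noncoding RNAs, SNHG5, a host gene of small nucleolar RNAs, was at 202, 224 and 231 FPKM in CBP and 839, 793 and 897 FPKM in input, a log2 fold change of -1.94 ± 0.21 (SE). SNHG7, another host gene, went the opposite way, at 79.5, 66.8 and 62.2 FPKM against 22.2, 21.9 and 22.8 FPKM, a change of 1.59. Nuclear long noncoding RNAs as a list had 5 higher and 4 lower of 28 (4 and 5 after centring). RP11-354P11.8 was at 0, 0 and 0.264 FPKM in CBP and 4.00, 4.51 and 3.20 FPKM in input.

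RPPH1, the RNA of ribonuclease P, was at 1141, 1369 and 1790 FPKM in CBP and 3169, 2928 and 3689 FPKM in input set 3. It was the 1 lower RNA among 7 small structured RNAs, but against all 9 inputs its change was -0.68 and the call was lost. The RNA RP11-298J23.9, annotated with a length of 68 bases, was listed at 0 in all CBP libraries and at 520, 1445 and 1812 FPKM in input, and SNORA58 was listed at 0 in CBP and at 9.69, 11.4 and 8.71 FPKM in input. An exact 0 in a table of FPKM can be a failed estimate. Of 13 genes tested that carry symbols of small nucleolar or Cajal body RNAs, 2 were higher and 1, SNORA58, was lower. SNORA58 was called against all 9 inputs, at -2.83, although the lowest of these libraries was also at 0. Its call was lost against input set 1 (-2.84, adjusted p = 0.0501) and input set 2 (-2.21, adjusted p = 0.135, both by limma). One of the higher ones, SNORA67 at 1.46, is annotated as a model with 12 exons and 4554 bases over EIF4A1, so that its value is not that of a small nucleolar RNA.

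The properties of the mRNAs were then compared with their enrichment, as Spearman correlations across 11226 mRNAs for each CBP library against the mean of input set 3. Genes are not independent replicates, and these values are descriptions. GC content of the transcript had the largest correlation, at 0.502, 0.456 and 0.517 in the 3 CBP libraries, a mean of 0.492 ± 0.0321 (SD, n = 3). Exon number correlated at 0.340 ± 0.0212 and the mean length of introns at -0.309 ± 0.00589, while transcript length correlated at 0.0329 ± 0.0199 (with the sign turned, at -0.0292, when all 9 inputs were used) and input FPKM at -0.140 ± 0.0450. After regression on transcript length, exon number kept a correlation of 0.326 ± 0.0118. After regression on exon number, transcript length correlated at -0.107 ± 0.0133.

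Some features were also examined after regression on others. With the effect of GC content regressed out, exon number correlated at 0.460 ± 0.0112, and with exon number and length regressed out, GC content correlated at 0.549 ± 0.0244. The correlation with intron length was smaller once GC content was regressed out, at -0.130 ± 0.00846.

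By decile of GC content, the share of mRNAs called higher went from 0.356% in the lowest (22.96% to 39.3% GC, 1123 mRNAs) to 50.7% in the highest (61.8% to 76.0% GC, 1123 mRNAs). The share called lower went from 6.77% to 0.0890%. By decile of exon number, the share called higher went from 7.30% to 22.3%, and by decile of mean intron length from 40.7% in mRNAs with the shortest introns to 3.46% in those with the longest. Transcript length had its maximum in between, with 23.4% higher in the third decile, 11.3% in the first and 7.04% in the last.

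When mRNAs were divided by exon number and by terciles of GC content, the GC-rich tercile held the most calls in each row. Among mRNAs with 11 or more exons, 527 of 836 (63.0%) in the GC-rich tercile were higher, compared with 105 of 921 (11.4%) in the middle and 10 of 1208 (0.828%) in the GC-poor tercile. Of 253 mRNAs with 1 exon, 8 of 94 in the GC-rich tercile were higher (8.51%) and 1 of 70 in the GC-poor one (1.43%). By chromosome, the share of mRNAs that were higher was largest on chromosomes 16, 19 and 17, at 28.6%, 28.1% and 27.3%, and smallest among nuclear chromosomes on chromosome 13, at 1.66%, where median GC contents were 56.5%, 59.5%, 54.8% and 41.9%.

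SON, although among the leading mRNAs, was at 47.3% GC and 5.4 exons on average over its isoforms. RPLP1 had 51.7% GC and 3.57 exons, and MT-CO3 had 46.6% GC and 1 exon.

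**Figure D4:**
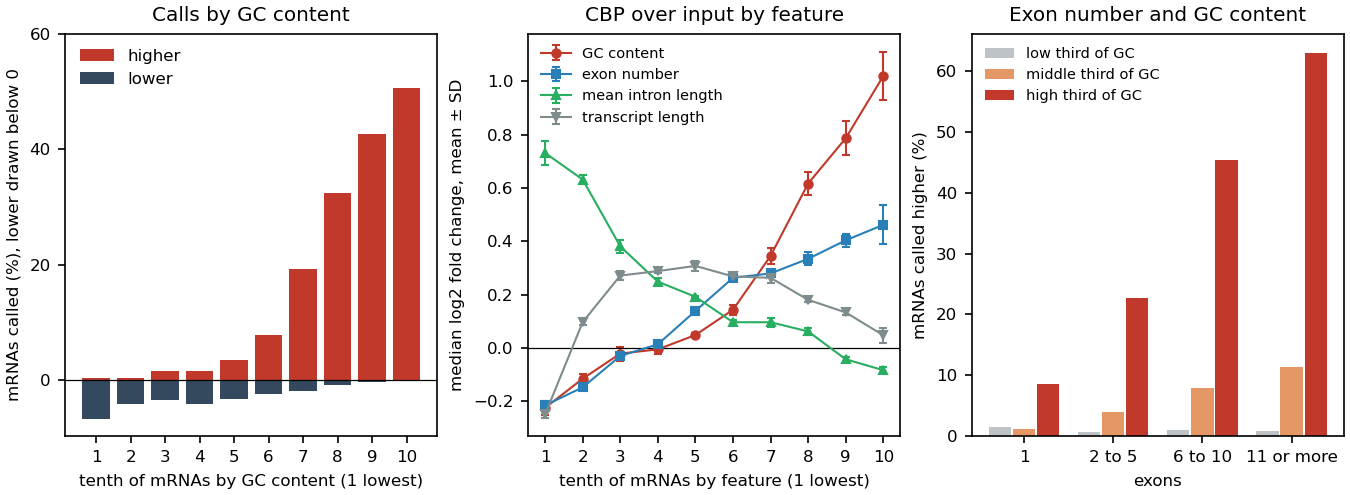
Left, percentage of mRNAs called higher (above 0) or lower (below 0) by decile of GC content. Middle, median log2 fold change by decile of 4 features, as mean and SD over the 3 CBP libraries. Right, percentage called higher by exon number and tercile of GC content, which reaches 63.0% for GC-rich mRNAs with 11 or more exons.

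Short sequence words were examined in the most expressed isoform of 11209 mRNAs, by correlating the number of each 6-base word per kilobase with the log2 fold change. The words with the highest correlations were GC-rich, led by CCCTGG (0.356), GCCCTG (0.352) and CCCCAG (0.343), and those with the lowest were AT-rich, led by TTAAAA (-0.349) and AATAAA (-0.349). CCCTGG was present in 67.1% of the isoforms, at 1.39 per kilobase in mRNAs that were higher and 0.621 in all others, and AATAAA, the polyadenylation signal, in 76.0%, at 0.362 and 0.809 per kilobase. Once GC content and its square were regressed out, the highest correlations were 0.139 for AGAGGA, 0.137 for GGATGA and 0.135 for TGGAGA, words rich in purines. The next word, CTGATG, was also at 0.135 and is not rich in purines. AATAAA was the lowest at -0.108. Only the sense strand was counted and words overlap each other. A word in a transcript is a description and not a site of contact.

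Isoforms were examined to see which kinds of transcript carried the enrichment. Of 54745 isoforms tested, 13275 (24.2%) were higher and 1981 (3.62%) lower. In protein-coding genes, 6461 of 12274 isoforms annotated as retained intron were higher (52.6%) and 50 were lower (0.407%), with a median log2 fold change of 1.17. Among 24178 protein-coding isoforms, 3151 were higher (13.03%) and 1124 lower (4.65%), with a median of 0.09. Isoforms marked for nonsense-mediated decay and those with no defined coding sequence lay in between, at 23.7% and 24.7% higher and medians of 0.43 each. The medians over the 3 CBP libraries were 1.18 ± 0.0791 (SD) for retained introns and 0.101 ± 0.0206 for protein-coding isoforms. Isoforms were tested at a mean of at least 1 FPKM over 6 libraries, so those near 0 in input could enter through CBP alone. How far this raised the share of higher isoforms of each type was not tested.

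The share of retained-intron isoforms in the FPKM of a gene was computed for 5689 protein-coding genes with a mean of at least 5 FPKM. The median share was 20.2%, 20.5% and 22.5% in the CBP libraries and 11.8%, 12.1% and 12.8% in input set 3. The CBP libraries lay above all 3, and the difference of 8.83 percentage points had an exact two-sided permutation p of 0.1, the smallest that 3 against 3 libraries can give. The 9 input libraries reached from 11.8% to 18.3%, and all lay below the CBP libraries. The input sets differed from each other, and CBP exceeded set 2 by 7.83 and set 1 by 3.65 percentage points, with an exact permutation p of 0.1 for each. The mean share was higher in CBP in 4567 of the genes (80.3%). In 2833 genes (49.8%) the CBP libraries all lay above those of input set 3, and in 287 (5.04%) all lay below.

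This share was not largest for CBP. It was 21.1% ± 1.25 (SD, n = 3) in CBP fRIP, 28.2% ± 0.577 in SUZ12, 16.2% ± 3.45 in CHD7 and 5.24% ± 0.990 in PCAF, the other acetyltransferase examined. CBP differed from each of these without overlap, with exact permutation p-values of 0.1 each (two-sided, n = 3 and 3, the smallest possible). CBP ranked as 7 among the 27 groups of fRIPs and inputs, with hnRNPH at the top at 34.7% ± 1.35 and PABP lowest at 1.28% ± 0.0269. Size and rank depend on the summary used. Pooled over genes, the share was 29.85% to 33.3% in CBP, 13.1% to 13.5% in input set 3 and 23.3% to 26.4% in HNRNPU. By the median, HNRNPU lay above CBP, at 24.0%.

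**Figure D5:**
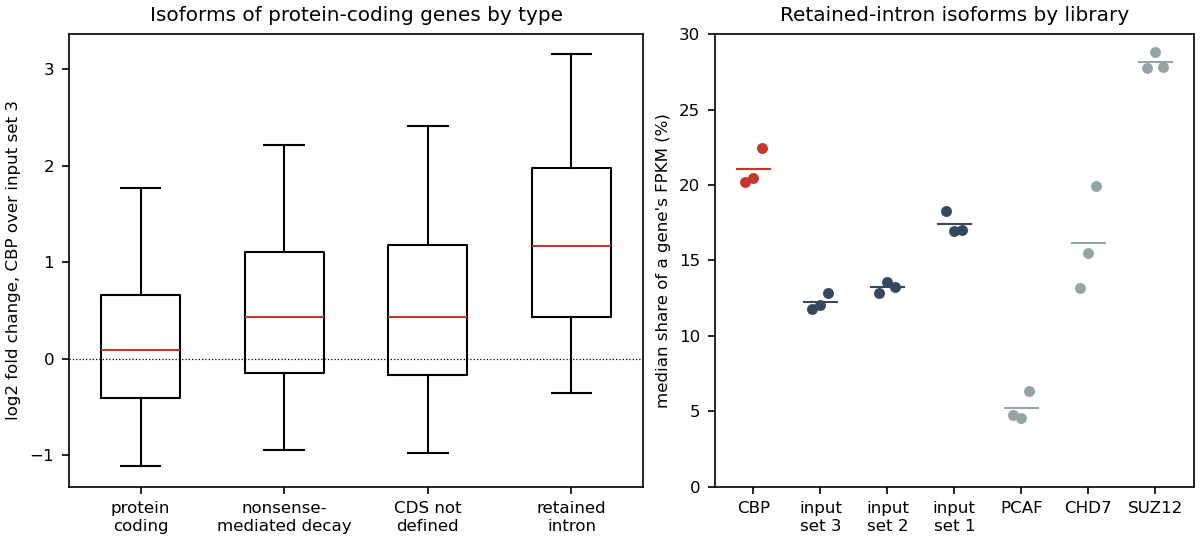
Left, log2 fold change (CBP fRIP over input set 3) of isoforms of protein-coding genes by annotated type, with boxes for the quartiles, red lines for the medians and whiskers from the 5 to the 95 percentile. Retained-intron isoforms have a median of 1.17 and protein-coding ones of 0.09. Right, median share of retained-intron isoforms in the FPKM of 5689 genes, with 1 point a library and lines for group means. The CBP libraries lie at 20.2% to 22.5% and input set 3 at 11.8% to 12.8%.

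Of the genes named in this text that were higher and had a retained-intron isoform tested, 40 of 53 had a larger share of such isoforms in every CBP library than in every library of input set 3, and 3 (CREBBP, SON and MRPS2) had a smaller one. Over all 5689 genes these shares were 49.8% and 5.04%, and the 53 were chosen for being higher in CBP, so that the counts are a description. MAN2C1 had 21 retained-intron isoforms tested, all of them higher, and their share was 81.9%, 81.4% and 82.9% in CBP and 68.8%, 63.0% and 64.7% in input. For POLD1, the catalytic subunit of DNA polymerase delta, the share was 39.9%, 43.3% and 48.8% against 7.50%, 8.33% and 11.5%. For SON it was 0.463%, 0.486% and 0.177% against 0.885%, 0.686% and 1.53%, and its coding isoform with 7 exons, ENST00000300278.4, was at 390, 303 and 385 FPKM in CBP and 18.3, 16.1 and 15.99 FPKM in input. The isoform table has no entry for unspliced precursor RNA, so that retained-intron transcripts and precursor RNA cannot be told apart, and the split of short reads between isoforms is itself an estimate.

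Introns that lie between coding exons and whole within an exon of a tested retained-intron isoform could be located for 4245 isoforms, with 6334 distinct introns. The log2 fold change of the isoform correlated with the GC content of the intron at 0.486 and with its length at -0.240 (Spearman, 7687 pairs of isoform and intron, which share isoforms, genes and libraries). These isoforms were not typical, as 3162 of the 4245 (74.5%) were higher, compared with 52.6% of all retained-intron isoforms that passed the filter. Of all pairs, 77.0% had a higher isoform. In the fifth of pairs with the lowest intron GC (13.6% to 45.1%), 41.2% had a higher isoform and the median change was 0.82. In the fifth with the highest (65.1% to 89.1%), 91.2% had one and the median was 2.28.

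Examples of such introns are printed to show their length and composition, read from the hg19 genome 5′ to 3′ on the strand of the gene, with the intron in capitals and 10 bases of each flanking exon in lower case. Only introns of at most 260 bases that begin with GT and end with AG were considered. The first 4 come from genes among the 12 leading mRNAs, and for each gene the shortest such intron of the isoform with the largest change among isoforms that hold one is shown. For HSF4, other retained-intron isoforms had larger changes, up to 4.61 for ENST00000522459.1. The last 2, for contrast, come from the isoforms called lower with the lowest changes among those that hold such an intron.
MAN2C1 (chr15:75651533-75651668, minus strand): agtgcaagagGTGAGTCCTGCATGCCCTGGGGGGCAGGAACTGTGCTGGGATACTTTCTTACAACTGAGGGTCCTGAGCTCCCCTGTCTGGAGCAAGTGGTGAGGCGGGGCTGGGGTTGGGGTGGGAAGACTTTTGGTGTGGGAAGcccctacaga
ATHL1 (chr11:290601-290677, plus strand): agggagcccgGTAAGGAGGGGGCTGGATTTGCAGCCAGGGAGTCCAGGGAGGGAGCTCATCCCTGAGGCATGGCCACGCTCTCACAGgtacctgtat
MIB2 (chr1:1563560-1563652, plus strand): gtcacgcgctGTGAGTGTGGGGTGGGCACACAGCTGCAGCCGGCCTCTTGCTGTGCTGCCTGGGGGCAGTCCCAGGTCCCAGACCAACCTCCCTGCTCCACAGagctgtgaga
HSF4 (chr16:67203005-67203181, plus strand): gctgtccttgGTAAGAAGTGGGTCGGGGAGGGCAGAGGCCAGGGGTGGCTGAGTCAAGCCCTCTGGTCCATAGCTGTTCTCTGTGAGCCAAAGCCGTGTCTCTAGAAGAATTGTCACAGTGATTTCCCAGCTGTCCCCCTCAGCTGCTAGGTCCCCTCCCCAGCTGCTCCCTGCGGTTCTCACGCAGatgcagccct
UROD (chr1:45478888-45478963, plus strand): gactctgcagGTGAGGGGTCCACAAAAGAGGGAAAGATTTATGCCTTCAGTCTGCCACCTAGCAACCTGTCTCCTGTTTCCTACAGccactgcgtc
RPL10 (chrX:153628968-153629042, plus strand): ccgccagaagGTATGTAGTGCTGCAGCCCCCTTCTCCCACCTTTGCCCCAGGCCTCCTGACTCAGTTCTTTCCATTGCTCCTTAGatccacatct

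The MAN2C1 intron has 136 bases and 60.3% GC, and the isoform that holds it (ENST00000569176.1) was at 72.1, 52.9 and 69.7 FPKM in CBP and 1.44, 0.751 and 0.520 FPKM in input, a log2 fold change of 5.13 ± 0.47 (SE). The ATHL1 intron has 77 bases and 63.6% GC, and its isoform (ENST00000529087.1) was at 190, 179 and 197 FPKM against 4.94, 4.70 and 5.57 FPKM, a change of 4.96. The isoform with the MIB2 intron (93 bases, 67.7% GC) changed by 4.13 and that with the HSF4 intron (177 bases, 59.9% GC) by 3.50. In the other direction, the UROD isoform (ENST00000462688.1, intron of 76 bases and 50.0% GC) was at 9.28, 6.37 and 3.54 FPKM in input and listed at or near 0 in CBP, and the RPL10 isoform (ENST00000467168.1, intron of 75 bases and 56.0% GC) was at 7.02, 3.17 and 6.90 FPKM in input and 1.66 FPKM in 1 CBP library, with the others at or near 0. UROD is an enzyme of heme synthesis and RPL10 a ribosomal protein.

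The CBP changes were finally tested against those of 3 other fRIPs, with input set 2 for PCAF, set 1 for SUZ12 and set 3 for CHD7. The choice of set was checked against the authors' input values for CHD7 and not for PCAF and SUZ12. These differences are signed, so a larger change in CBP can mean more enrichment or less under-representation. Against PCAF, an acetyltransferase of another family, 3064 genes (19.0%) had a larger signed change in CBP and 399 (2.48%) a smaller one. Against SUZ12, a subunit of the PRC2 methyltransferase, 1951 (12.1%) were larger and 2114 (13.1%) smaller. With the inputs cancelled, these counts were 3430 and 556 for PCAF and 2612 and 2689 for SUZ12, and after centring they were 2148 and 1283 for PCAF and 1605 and 2414 for SUZ12. Against CHD7, a chromatin remodeller whose comparison shares input set 3 so that the inputs cancel, 1746 (10.8%) were larger and 633 (3.93%) smaller, and after centring 1392 and 972.

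The 12 leading mRNAs had larger changes in CBP than in each of the 3 others, which is a description, since they were chosen for their change in CBP. For SON the difference was 3.20 from PCAF, 2.37 from SUZ12 and 3.55 from CHD7 on the log2 scale, and for ATHL1 it was 3.77, 2.75 and 3.80. MT-CO3 was lower than input in CBP (-2.16) and further below it in PCAF (-4.82), SUZ12 (-2.78) and CHD7 (-2.99). The signed difference of CBP was 2.66 from PCAF, 0.62 from SUZ12 and 0.83 from CHD7, and only that from PCAF was called. RPLP1 changed by -1.96 in CBP and by -2.06, -2.22 and -2.19 in PCAF, SUZ12 and CHD7. The differences were 0.10, 0.26 and 0.22, and none of them was called (adjusted p from 0.40 to 0.80, limma).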

How the data were processed

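RNA from fRIP and input of K562 cells was sequenced by the authors, aligned to hg19 with TopHat and quantified on GENCODE v18 with Cuffdiff 2. The tables of genes and isoforms that they deposited hold FPKM per library. A deposited table of the authors' comparisons gave only its input FPKM, to find the nearest input set, and its fold changes and p-values were not used. The sources used here do not say whether counting took account of strand.

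Classes, coordinates and sequences came from GENCODE v44 lifted to GRCh37, in which 46055 of 48453 gene identifiers and 172143 of 185661 isoform identifiers were found. The tools were Python 3.11.15 (pandas 2.3.3, numpy 2.4.6, scipy 1.17.1, matplotlib 3.10.9) and R 4.3.3 (limma 3.58.1, data.table package at 1.17.8). log2(FPKM + 1) values of all 79 libraries entered 1 limma fit with an intensity trend, in which each protein and each input set had its own mean, for features with a mean of at least 1 FPKM over the 6 libraries. Benjamini-Hochberg adjustment covered every gene or isoform tested, and a call required adjusted p below 0.05 together with a change beyond 1 in size. Fold changes on this scale understate the change of low genes. The tables hold no counts, and depth was estimated from the step that 1 fragment makes. Length, exon number and GC content were averaged over isoforms, weighted by input FPKM. Fit and correlations were tested on simulated data.

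Groups were taken from the labels. Genes named are the 12 mRNAs with the largest and the 10 with the smallest change and 5 and 3 lncRNAs likewise, all called and with no overlap between the groups, CREBBP and EP300, and from each of 37 lists the 2 called members with the largest change in size. HBE1, GATA1, UROD and RPL10 are shown as markers or sequence examples, chosen after their values were seen. Pseudogenes were left out of lists written as name patterns. The members and lists were chosen with earlier results of these data known. Alternatives were pseudocounts of 0.1 and 0.5 FPKM, other filters, centring on the median, other inputs, the 6 libraries alone, a replicate block and each library left out. Those on isoform shares, on isoforms with 1 intron and on pseudogenes in lists were added after seeing the data.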

Additional observations from a re-analysis of the deposited data

Results flagged for a closer look

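The change in CBP was tested against the change in 3 other fRIPs, and differences were called in both directions. Changes are signed, so that less under-representation in CBP counts as larger. Genes with a larger signed change in CBP numbered 3064 against PCAF, 1951 against SUZ12 and 1746 against CHD7, and those with a smaller one 399, 2114 and 633. CREBBP had a larger change in CBP than in PCAF by 2.81, than in SUZ12 by 1.499 and than in CHD7 by 2.29 on the log2 scale, each in 3 of 3 CBP libraries. No cause was tested.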

How the results depend on the processing

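In place of 706 lower genes, there were 429 at a mean of at least 5 FPKM, 1394 after centring and 1287 against input set 1, and leaving out 1 library gave 674 to 794 (2219 to 2354 higher). Centring also gave 1283 genes with a smaller signed change than PCAF and 972 than CHD7. At a mean of at least 5 FPKM, 5974 isoforms were higher and 1098 lower. The correlation with exon number was 0.3148 with all 9 inputs and 0.3152 with the top isoform, that with transcript length -0.0292, 0.06041 (at least 5 FPKM) and 0.06049 (top isoform), that with input FPKM -0.05746 (9 inputs) and -0.2069 (at least 5 FPKM), and that with intron length -0.3481 (9 inputs). The retained-intron share differed by 6.767 percentage points with 9 inputs and 3.647 with input set 1, and the correlation with intron GC was 0.464 in isoforms with 1 intron. Among counts of higher or lower members of the gene lists, 26 moved by over 1.5 times, or to or from 0, against input set 1, 20 after centring, 19 against input set 2 and 15 with 9 inputs. HIST1H4D changed by 0.3366 against input set 1. Calls of C11orf34, ALAD, XK, DNAJC19, PCBP4, HIST1H4D, SNORA58, RPPH1, FOS, CCNL1 and UBR4 were lost under at least 1 alternative. The cause was not tested. With the replicate block, 2302 genes were higher and 708 lower. Correlations of same-numbered CBP and input libraries were 0.0354, 0.0710 and 0.104, so that the libraries were taken to share only a number. Depth limits the values of genes near the filter.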
